A study of Rattus norvegicus with 9 samples.

Results

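Genes of the matrix metalloproteinases, the ADAM and ADAMTS proteases and the tissue inhibitors of metalloproteinases (TIMPs) were followed across 3 kinds of rat liver cell preparation. The set held every gene whose symbol begins with Mmp, Adam, Adamts or Timp and a digit and to which the array annotation gave a row of its own. It came to 54 of 14497 named genes, with 21 Mmp, 18 Adam, 11 Adamts and 4 Timp genes. A current rat gene table lists 77 such symbols, and 23 of them, among them Adam8, Adam10, Adam12, Adam19, Adamts13 and Mmp25, were not analysed here. RNA came from liver cells of F344 rats, with 1 array for each preparation and 3 preparations, called biological replicates in the labels, in each group. The first group was hepatocytes of animals aged 5 to 6 weeks, freed by collagenase perfusion, here called adult hepatocytes. The other groups were fetal liver cells of embryonic day 19, dissociated with collagenase and sorted on magnetic columns with monoclonal antibodies against leucine aminopeptidase (LAP), a surface marker of hepatic cells, and OC.2, a marker of ducts. Cells labelled LAP+/OC.2- are called OC.2- cells and those labelled LAP+/OC.2+ are called OC.2+ cells. The labels are not in full accord, since the sorting protocol describes selection for both markers in either fetal group and the OC.2+ samples are also described as LAP-OC2+. The grouping follows titles and cell type labels. No treatment or transgene was given to any group. The labels state neither sex nor whether the cells of several fetuses were combined.

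Matrix metalloproteinases (MMPs) are zinc enzymes that cut collagens, gelatin, proteoglycans and basement membrane proteins outside the cell, and some of them are held in the cell membrane. ADAMs are membrane proteases that release the outer part of cell surface proteins, although many members have lost the catalytic site or act in sperm. ADAMTS enzymes are secreted and cut proteoglycans, procollagens or von Willebrand factor. TIMPs bind the active site of these enzymes and block it. In liver the system turns over the matrix during growth and fibrosis, and stellate cells, endothelial cells and infiltrating leukocytes are known sources of many members.

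Values are log2 intensities, differences are log2 differences or folds with 95% intervals, and errors are SD over 3 arrays or the standard error (SE) of the fit. Array medians lay between 6.31 and 6.34 on adult arrays and between 6.43 and 6.49 on fetal ones, and correlations between arrays of 1 group were 0.986 to 0.992. A gene was called at an adjusted p under 0.05 in limma, adjusted over all named genes. No detection call exists in these data. Exactly equal values on at least 2 arrays were found for 26 of the 54 genes and for 41.3% of all named genes, and SDs of such genes may be too small. In bulk samples, fewer cells of a type and less RNA per cell cannot be told apart.

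Markers of other cells moved with the groups. The 8 hepatocyte markers summed to an intensity of 69191 to 74978 on adult arrays, 62602 to 67166 on OC.2- arrays and 27352 to 30367 on OC.2+ arrays. All 8 were called lower in OC.2+ cells than in the OC.2- group (18.2% of all named genes were), with a median difference of -1.96. The sums fell less than that median, since Alb, the brightest of the 8, averaged 14.11 in OC.2- and 13.79 in OC.2+ cells. The 10 neutrophil markers summed to 556 to 612 on adult, 638 to 712 on OC.2- and 14425 to 15961 on OC.2+ arrays, and 9 of the 10 were higher in OC.2+ cells than in the OC.2- group. Lactoferrin (Ltf), the exception, lay below the array median on all 9 arrays. The 6 measured endothelial markers summed to 660 to 862 on adult, 3286 to 4416 on OC.2- and 563 to 575 on OC.2+ arrays. For the 10 stellate and mesenchymal markers the sums were 1291 to 1399, 3074 to 3590 and 1525 to 1603. Macrophage markers summed to 1158 to 1278, 2206 to 2884 and 1701 to 2050 in the same order. Pdgfrb among the stellate markers and Vsig4 among the macrophage markers averaged highest in adult hepatocytes, at 8.05 and 7.43. The sums of the 6 measured biliary markers, of the ducts that OC.2 is said to mark, stayed between 361 and 437 on all arrays. Among them only Krt19 lay above an array median, at 6.51 to 6.62 on the OC.2- arrays. In OC.2+ cells against the OC.2- group, 1 of the 6 was called higher and 1 lower. Erythroid markers (6 measured) summed to 661 to 699 on adult, 10536 to 12974 on OC.2- and 26219 to 26425 on OC.2+ arrays. Megakaryocyte and platelet markers (4 measured) summed to 367 to 391, 526 to 541 and 1402 to 1536 in that order, and the 6 mast cell and basophil markers to 237 to 275, 7463 to 8025 and 1754 to 1918. The last sums were mostly Hdc on fetal arrays, at a mean log2 intensity of 12.87 in OC.2- and 10.37 in OC.2+ cells. Of these 6 markers, 3 were called higher in OC.2+ cells than in the OC.2- group (Mcpt8, Ms4a2 and Kit) and 2 lower (Hdc and Cpa3).

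**Figure D1:**
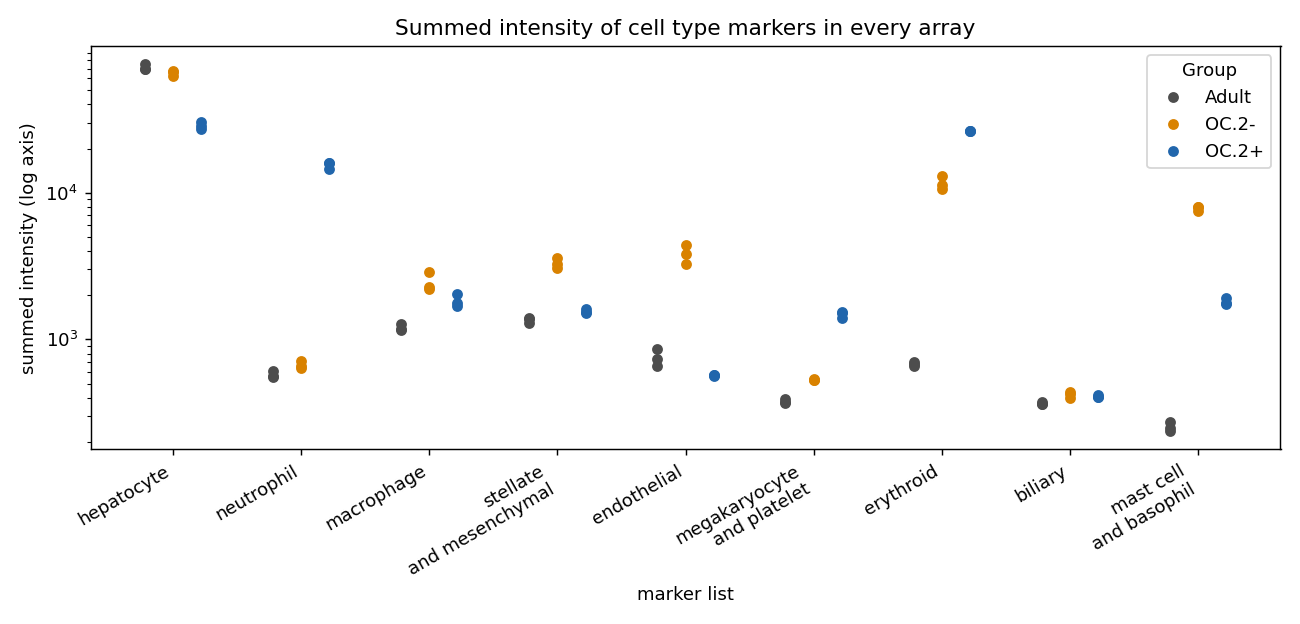
Summed intensity (log axis) of the measured markers of 9 cell types in each of the 9 arrays, with 1 point per array coloured by group. Neutrophil sums were 14425 to 15961 on OC.2+ arrays and at most 712 elsewhere, while endothelial sums were 3286 to 4416 on OC.2- arrays and at most 862 elsewhere.

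On all 9 arrays 30 genes lay below the array median and 12 above it, and of the 30, 9 were called in some comparison and 0 were called at 2-fold or more. In at least 1 comparison 31 genes were called, which is 57.4% of the 54 against 64.2% of all named genes. Those that were also at least 2-fold apart came to 12, or 22.2% against 21.9%, so neither share was far from that of all genes.

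The group in which a gene was highest was less evenly spread. Called above both other groups were 10 genes in OC.2- cells (18.5% against 5.48% of all named genes), 4 in OC.2+ cells (7.41% against 16.2%) and 3 in adult hepatocytes (5.56% against 17.2%). The 10 highest in OC.2- cells were Adamts1, Adamts2, Adamts4, Adamts9, Adamts12, Mmp2, Mmp16, Timp1, Timp2 and Timp3. The 4 highest in OC.2+ cells were Mmp8, Mmp9, Adam17 and Adamts3, and the 3 highest in adult hepatocytes were Adamts7, Mmp15 and Mmp19. Genes called below both other groups in OC.2+ cells numbered 5 (9.26% against 13.4%): Adam9, Adamts12, Mmp14, Mmp15 and Mmp19. Of those called lowest in adult hepatocytes there were 10 (18.5% against 18.1%), and of those lowest in OC.2- cells 0 (0% against 3.76%). With each array centred on its median, 7 genes rather than 3 were highest in adult hepatocytes, and 5 were after cyclic loess, while the count in OC.2- cells was 10 to 11 under the 3 scalings.

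**Figure D2:**
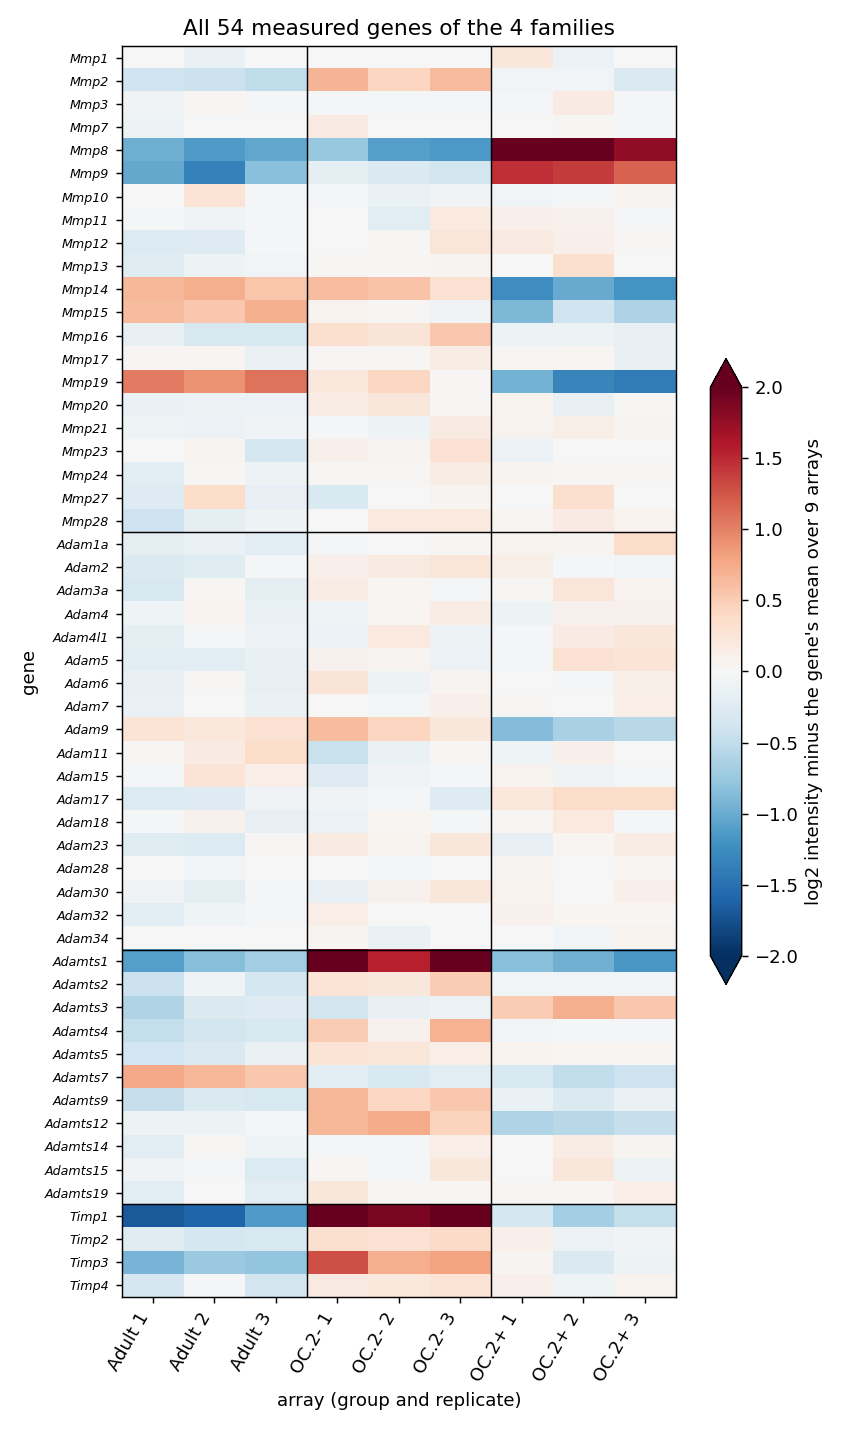
Log2 intensity of all 54 genes minus the gene's mean over 9 arrays, with 1 column per array and horizontal lines between the Mmp, Adam, Adamts and Timp families; colours end at 2 log2 units either way. Mmp8 and Mmp9 stand out on the OC.2+ arrays, Adamts1, Timp1 and Timp3 on the OC.2- arrays, and most Adam rows are nearly flat.

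Between the fetal groups, 4 of the 54 genes were higher in OC.2+ cells and 14 lower, and the secreted inhibitors and ADAMTS enzymes were among the lower ones. The 18 called genes are 33.3% of the 54, against 38.5% of all named genes. The higher share was 7.41% against 20.3% of all named genes and the lower share 25.9% against 18.2%. At 2-fold or more the counts were 2 higher (3.70% against 3.69%) and 7 lower (13.0% against 6.63%), or 9 in all (16.7% against 10.3%). Arrays of the fetal groups did not overlap for 23 genes (42.6% against 46.5%). The median difference was -0.03 over the 54 genes and 0.04 over all named genes. All 18 calls were also made under the 3 other scalings and without any 1 array.

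OC.2- cells against adult hepatocytes gave 19 higher genes (35.2% against 23.7%) and 4 lower (7.41% against 20.9%), 23 in all (42.6% against 44.5%). Arrays did not overlap for 26 genes (48.1% against 51.4%). At 2-fold or more 4 were higher (7.41% against 4.06%) and 0 lower (0% against 6.58%), 4 in all (7.41% against 10.6%). The medians were 0.16 over the 54 genes and 0.07 over all named genes. The split was 16 higher and 6 lower after quantile normalization, 13 and 7 with arrays centred on their medians, and 15 and 6 after cyclic loess. Among all called genes the higher ones made up 53.1% as deposited, and 47.7%, 34.6% and 42.5% under these scalings in the same order. Of the 19 genes called higher, 13 were called higher under each of the 3 scalings, and the 6 that were not (Adam2, Adam23, Adamts19, Mmp12, Mmp20 and Mmp28) differed by 0.24 to 0.36 on the deposited values.

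OC.2+ cells against adult hepatocytes, a comparison that shares its arrays with the other 2, gave 16 higher genes (29.6% against 32.0%) and 6 lower (11.1% against 23.4%), 22 in all (40.7% against 55.4%). Arrays did not overlap for 27 genes (50% against 62.2%). At 2-fold or more 2 were higher (3.70% against 7.82%) and 4 lower (7.41% against 11.1%), 6 in all (11.1% against 19.0%). The medians were 0.15 over the 54 genes and 0.11 over all named genes. The split depended on scaling, at 7 higher and 7 lower with quantile normalization, 6 and 9 with median centring and 6 and 8 with cyclic loess. Of the 16 higher genes only Adam17, Adamts3, Mmp8, Mmp9, Timp1 and Timp3 were called under all of these scalings, and all 6 lower ones were (Adam9, Adamts7, Adamts12, Mmp14, Mmp15 and Mmp19). Among all called genes the higher ones made up 57.8% as deposited, and 50.2%, 42.5% and 42.2% in that order.

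**Figure D3:**
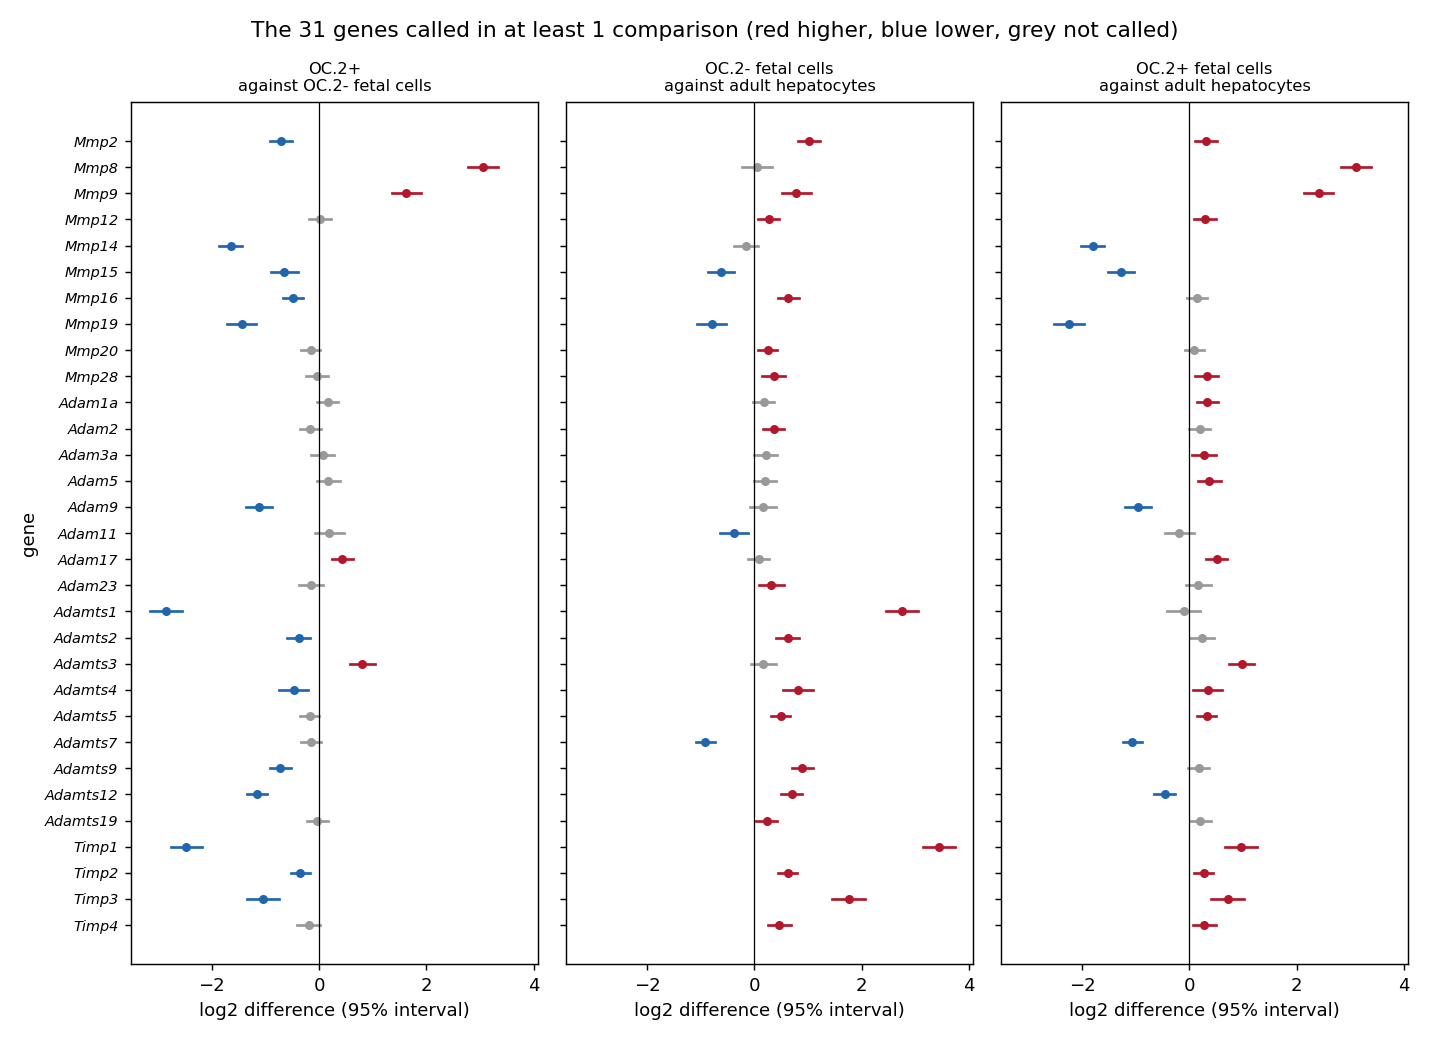
Log2 differences with 95% intervals of the 31 genes called in at least 1 comparison, in 3 panels, 1 for each comparison (first group minus second). Timp1 has differences of -2.47, 3.44 and 0.97 from left to right, and Mmp8 of 3.06, 0.05 and 3.10.

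Of the 3 collagenases, which cut fibrillar collagen, Mmp8 alone was called in any comparison. Mmp8, the neutrophil collagenase stored in granules, was 8.44, 8.45 and 8.01 on the OC.2+ arrays. It was 5.48, 5.14 and 5.10 on the OC.2- arrays and 5.26, 5.10 and 5.21 on the adult arrays. All OC.2+ arrays were thus far above the other 6, which overlapped and lay below their array medians. Mmp8 was 8.33-fold (95% interval 6.85 to 10.1) higher in OC.2+ cells than in the OC.2- group (limma adjusted p = 1.08e-09). The fold over adult hepatocytes was 8.60 (95% interval 7.08 to 10.5, limma adjusted p = 2.20e-10). Neutrophil markers rose on the same arrays, from sums of 638 to 712 to sums of 14425 to 15961, and erythroid and megakaryocyte sums were highest there too; their part in the Mmp8 difference was not tested. Folds of genes this dim in 2 groups can be understated.

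Mmp8 lies within a cluster of 10 Mmp genes on rat chromosome 8, in the order Mmp13, Mmp12, Mmp1b, Mmp3, Mmp1, Mmp10, Mmp8, Mmp27, Mmp20 and Mmp7 in the RefSeq table of GRCr8, with no other protein-coding gene that starts between them. Of these, 9 were measured. The 8 measured neighbours of Mmp8 were 4.55 to 6.17 over all arrays, and none was called between the fetal groups, where their differences ran from -0.16 to 0.20. Mmp10, a stromelysin, and Mmp27, the direct neighbours on either side, differed between OC.2+ and OC.2- cells by 0.07 ± 0.09 and 0.20 ± 0.16 (SE). Mmp12, the elastase of macrophages, was 5.66 to 6.17 on the 9 arrays, and Mmp7, the matrilysin, 4.76 to 5.02.

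**Figure D4:**
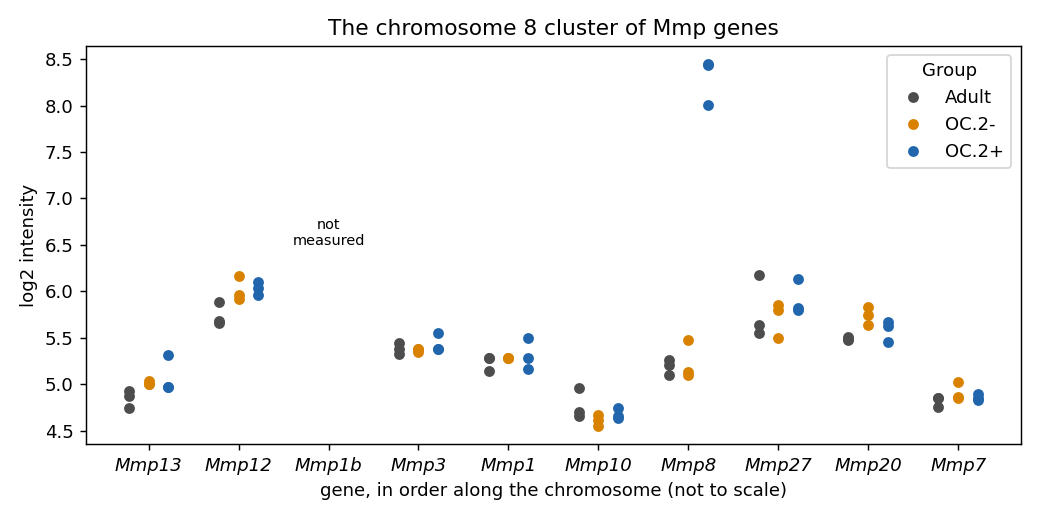
Log2 intensity of the genes of the chromosome 8 cluster in each array, ordered along the chromosome (not to scale), with 1 point per array coloured by group. Read within each gene, since levels of different probes do not share a scale, the OC.2+ points of Mmp8 (8.01 to 8.45) stand apart from its other points (5.10 to 5.48), and for no other gene of the cluster were the fetal groups called different.

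The promoters of Mmp8 and of its 2 direct neighbours are printed because Mmp8 was called in 2 comparisons and the adjoining Mmp10 and Mmp27 in none. Each runs from 250 bases before to 50 bases after the annotated start, 5′ to 3′ on the gene's strand, from RefSeq (GRCr8). Capitals mark matches, on either strand, to the TATA box searched as TATAAA, the GC box searched as GGGCGG, the AP-1 site searched as TGANTCA, the C/EBP site searched as TTGCNNAA or the PU.1 site searched as GAGGAAGT.
Mmp8 (GRCr8 chr8:13008640-13008939, plus strand): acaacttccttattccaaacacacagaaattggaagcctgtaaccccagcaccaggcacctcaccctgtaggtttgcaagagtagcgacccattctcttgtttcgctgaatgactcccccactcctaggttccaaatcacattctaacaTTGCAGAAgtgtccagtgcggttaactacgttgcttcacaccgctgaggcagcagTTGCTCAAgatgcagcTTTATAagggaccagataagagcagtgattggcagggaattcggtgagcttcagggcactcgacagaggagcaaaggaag
Mmp10 (GRCr8 chr8:12974457-12974756, plus strand): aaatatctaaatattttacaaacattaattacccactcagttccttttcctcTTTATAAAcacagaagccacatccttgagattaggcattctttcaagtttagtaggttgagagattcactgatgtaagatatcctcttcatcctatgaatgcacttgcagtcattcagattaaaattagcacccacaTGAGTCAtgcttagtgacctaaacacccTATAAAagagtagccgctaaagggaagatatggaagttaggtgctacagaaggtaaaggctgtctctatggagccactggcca
Mmp27 (GRCr8 chr8:13030502-13030801, plus strand): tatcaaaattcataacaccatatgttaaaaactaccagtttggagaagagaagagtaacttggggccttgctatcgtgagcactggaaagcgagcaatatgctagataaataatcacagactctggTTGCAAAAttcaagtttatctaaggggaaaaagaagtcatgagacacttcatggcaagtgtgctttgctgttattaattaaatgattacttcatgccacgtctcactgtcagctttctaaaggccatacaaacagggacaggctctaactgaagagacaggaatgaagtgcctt
In the Mmp8 window 2 matches to TTGCNNAA, TTGCAGAA and TTGCTCAA, and a reversed TATAAA were found. TTGCNNAA occurs in 10.6% and TATAAA in 14.2% of all 33469 promoters of that length. Mmp10 held 1 AP-1 match, TGAGTCA, and 3 matches to TATAAA or its reverse, with no match to TTGCNNAA. Mmp27 held 1 match to TTGCNNAA, TTGCAAAA, and none to the other motifs.

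Promoters were on file for 34 of the 54 genes, and 10 of the 15 genes described array by array. The first promoter on file was taken for each of these genes, while the shares of all promoters count every promoter on file. AP-1 letters were found in 7 of the 34 (20.6%) against 7.33% of all promoters, and all 7 belong to the chromosome 8 cluster (7 of the 9 cluster promoters on file and 0 of the 25 others). Within the cluster Mmp8 and Mmp27 lacked them. TATAAA was present in 13 of the 34 (38.2%), 8 of them in the cluster. The GC box was present in 15 (44.1% against 33.1%), none of them in the cluster. TTGCNNAA matched in 5 (14.7%), all in the cluster, and GAGGAAGT in 2 (5.88% against 2.42%), Mmp7 and Adamts4. Letters that match a motif are a description and not a binding site.

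Both gelatinases, which cut denatured collagen and basement membrane collagen, were called in every comparison, in opposite directions between the fetal groups. Mmp9, gelatinase B, which neutrophils store in granules, was 8.38, 8.32 and 8.11 in OC.2+ cells. It was 6.74, 6.64 and 6.55 in OC.2- cells and 5.90, 5.57 and 6.09 in adult hepatocytes. The 3 groups did not overlap, with OC.2+ cells highest and adult hepatocytes lowest. Mmp9 was 3.09-fold (95% interval 2.56 to 3.72) higher in OC.2+ cells than in the OC.2- group (limma adjusted p = 2.18e-07) and 1.73-fold (95% interval 1.43 to 2.08) higher in OC.2- cells than in adult hepatocytes (limma adjusted p = 0.000168). Neutrophil, erythroid and megakaryocyte marker sums had the same order of groups, and macrophage sums were highest on the OC.2- arrays; the part of each was not tested.

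Mmp2, gelatinase A, a product of mesenchymal cells, was 7.69, 7.44 and 7.65 in OC.2- cells. It was 6.96, 6.96 and 6.73 in OC.2+ cells and 6.62, 6.58 and 6.51 in adult hepatocytes. The groups did not overlap, and OC.2- cells were highest. It was 2.03-fold (95% interval 1.76 to 2.33) higher in OC.2- cells than in adult hepatocytes (limma adjusted p = 1.29e-06) and 1.63-fold (95% interval 1.42 to 1.88) higher than in OC.2+ cells (limma adjusted p = 3.75e-05). The difference of 0.31 ± 0.09 (SE) between OC.2+ cells and adult hepatocytes (limma adjusted p = 0.0126) lost its call under each other scaling, with adjusted p up to 0.138, and without OC.2+ replicate 1 (adjusted p = 0.0529) or 2 (adjusted p = 0.0536).

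Membrane-type MMPs, which act at the cell surface, were lower in OC.2+ cells than in the OC.2- group in 3 of the 5 cases and higher in 0, against 18.2% and 20.3% of all named genes. Mmp14 (MT1-MMP), which activates the Mmp2 precursor at the membrane, was 8.16, 8.24 and 8.06 in adult hepatocytes. It was 8.13, 8.08 and 7.80 in OC.2- cells and 6.26, 6.49 and 6.30 in OC.2+ cells. Adult and OC.2- arrays overlapped, and all OC.2+ arrays were below them. Mmp14 was 3.14-fold (95% interval 2.70 to 3.66) lower in OC.2+ cells than in the OC.2- group (limma adjusted p = 2.95e-08). The difference between OC.2- cells and adult hepatocytes was -0.15 (95% interval -0.37 to 0.07, limma adjusted p = 0.256). With each array centred on its median it was -0.28 and called for Mmp14 (limma adjusted p = 0.0496).

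Mmp15 (MT2-MMP) was 8.32, 8.22 and 8.40 in adult hepatocytes, 7.75, 7.71 and 7.61 in OC.2- cells and 6.79, 7.28 and 7.07 in OC.2+ cells. The groups did not overlap and the order ran from adult hepatocytes down to OC.2+ cells. It was 1.54-fold (95% interval 1.30 to 1.82) lower in OC.2- cells than in adult hepatocytes (limma adjusted p = 0.000532) and 1.57-fold (95% interval 1.32 to 1.85) lower again in OC.2+ cells (limma adjusted p = 0.000391). Mmp16 (MT3-MMP) was highest in OC.2- cells, at 6.44 ± 0.15 (SD) against 5.95 ± 0.03 in OC.2+ cells and 5.80 ± 0.10 in adult hepatocytes (n = 3 in each). Mmp17 and Mmp24 were called in no comparison.

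Mmp19, which cuts basement membrane proteins, had the same order of groups as Mmp15 and wider gaps. It was 8.62, 8.48 and 8.67 in adult hepatocytes, 7.80, 7.99 and 7.61 in OC.2- cells and 6.63, 6.25 and 6.17 in OC.2+ cells. No arrays of different groups overlapped. Mmp19 was 4.72-fold (95% interval 3.90 to 5.71) lower in OC.2+ cells than in adult hepatocytes (limma adjusted p = 4.88e-09) and 2.72-fold (95% interval 2.25 to 3.29) lower than in OC.2- cells (limma adjusted p = 8.32e-07). The fold between OC.2- cells and adult hepatocytes was 1.73 (95% interval 1.43 to 2.10, limma adjusted p = 0.000191). Mmp14, Mmp15 and Mmp19 were lowest on the arrays where the hepatocyte markers also summed lowest, 27352 to 30367. Between the fetal groups these 3 genes differed by -1.65, -0.65 and -1.45, and the median over the 8 hepatocyte markers was -1.96. The part of hepatocyte content was not tested.

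Stromelysins (Mmp3, Mmp10 and Mmp11) were called in no comparison and lay below the array median on all 9 arrays. The same held for the matrilysin Mmp7 and for the collagenases Mmp1 and Mmp13. Mmp28 (epilysin) was 0.36 ± 0.10 (SE) higher in OC.2- cells and 0.32 ± 0.10 higher in OC.2+ cells than in adult hepatocytes, and each difference lost its call under at least 1 other scaling. Mmp21, Mmp23 and Mmp27 were called nowhere.

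**Figure D5:**
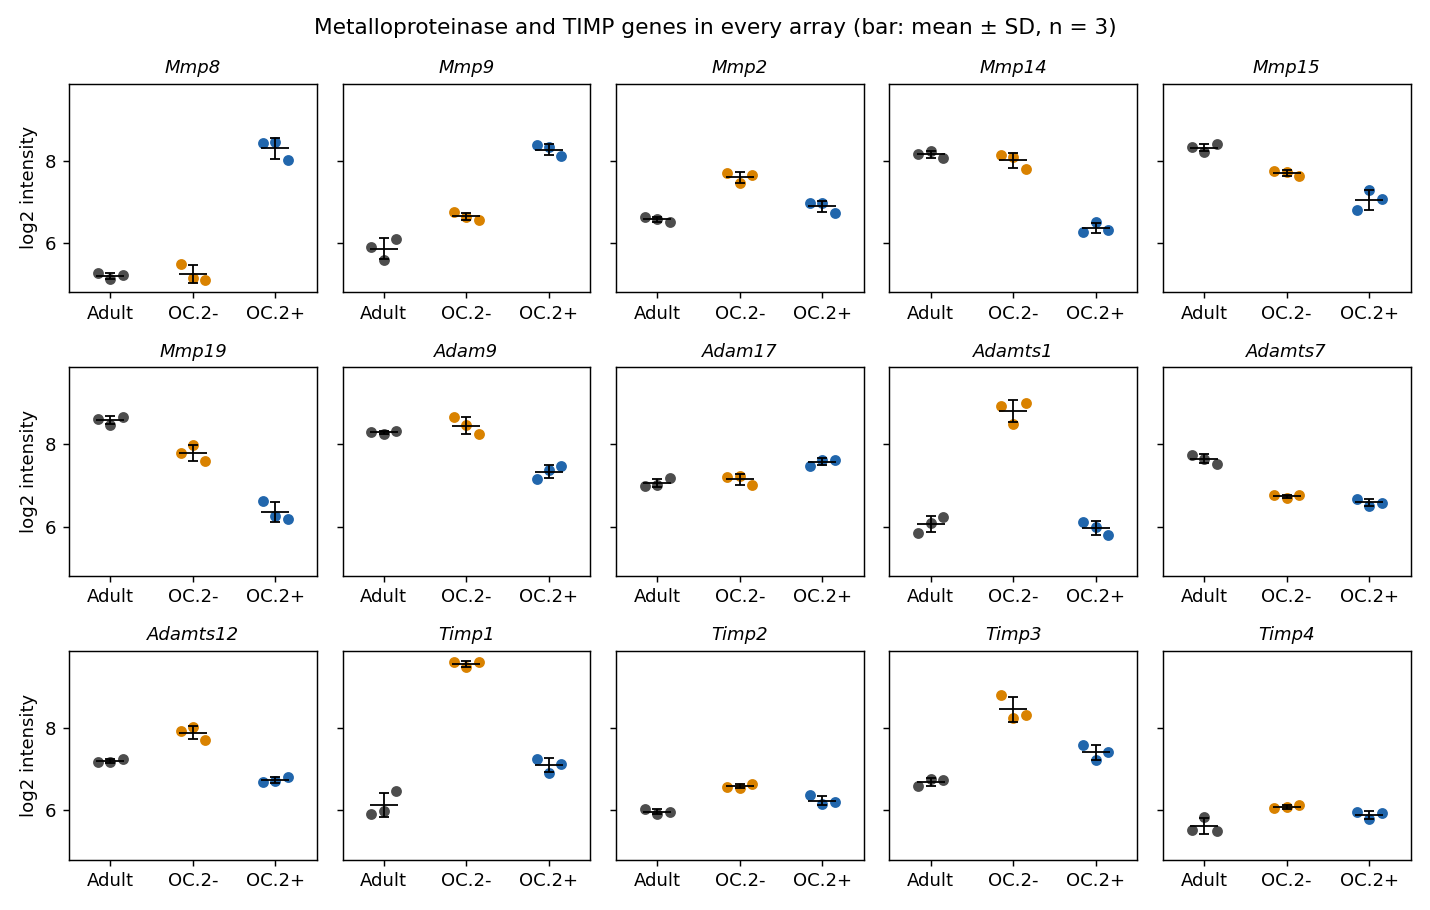
Log2 intensity of 15 genes in every array, 1 panel per gene, with 1 point per array and the mean ± SD (n = 3) of each group. Called above both other groups are Mmp8, Mmp9 and Adam17 in OC.2+ cells, and Mmp15, Mmp19 and Adamts7 in adult hepatocytes. In OC.2- cells they are Mmp2, Adamts1, Adamts12, Timp1, Timp2 and Timp3.

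Of the 18 ADAM genes, 1 was higher and 1 lower in OC.2+ cells against the OC.2- group, where 20.3% and 18.2% of all named genes were. Only Adam9 was called with a 2-fold difference in any comparison, against 21.9% of all named genes. Adam9, a membrane protease of epithelial and other cells, was 8.31, 8.25 and 8.33 in adult hepatocytes. It was 8.66, 8.46 and 8.26 in OC.2- cells and 7.16, 7.38 and 7.47 in OC.2+ cells. The first 2 groups overlapped and OC.2+ cells were lower on every array. OC.2- cells differed from adult hepatocytes by 0.17 ± 0.11 (SE) (limma adjusted p = 0.242), and after quantile normalization by 0.34, which was called (limma adjusted p = 0.0148). Adam9 was 2.18-fold (95% interval 1.85 to 2.57) lower in OC.2+ cells than in the OC.2- group (limma adjusted p = 2.35e-06) and 1.94-fold (95% interval 1.65 to 2.29) lower than in adult hepatocytes (limma adjusted p = 5.93e-06).

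Adam17, the enzyme that releases tumour necrosis factor from the membrane, was 7.48, 7.62 and 7.63 in OC.2+ cells. It was 7.20, 7.24 and 7.0 in OC.2- cells and 6.99, 7.01 and 7.18 in adult hepatocytes. OC.2+ arrays were above all others, and the other groups overlapped. The fold was 1.35 (95% interval 1.18 to 1.54) over OC.2- cells (limma adjusted p = 0.00176) and 1.43 (95% interval 1.25 to 1.64) over adult hepatocytes (limma adjusted p = 0.000307).

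Among the other ADAMs with a protease domain, Adam15, found in many tissues, was 6.56 to 7.08 over the 9 arrays and Adam28, known from lymphocytes, 5.79 to 5.89, and neither was called. Adam11 and Adam23, which lack the catalytic zinc site, were called in OC.2- cells against adult hepatocytes, at -0.37 ± 0.12 and 0.32 ± 0.10 (SE). Both calls ended when 1 array was left out in the least favourable case (limma adjusted p = 0.114 and 0.0884). The 12 ADAMs known mainly from testis, sperm or epididymis were called in no case between the fetal groups, and 11 of them lay below the array median on all arrays. Against adult hepatocytes, Adam2 was called in OC.2- cells (0.36) and Adam1a, Adam3a and Adam5 in OC.2+ cells (0.28 to 0.37), each with adjusted p over 0.05 under at least 1 other scaling.

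Of the 11 ADAMTS genes, 5 (Adamts1, Adamts2, Adamts4, Adamts9 and Adamts12) were called above both other groups in OC.2- cells, against 5.48% of all named genes. Against adult hepatocytes 7 were higher and 1 lower in OC.2- cells, where 23.7% and 20.9% of all named genes were. OC.2+ cells fell below OC.2- cells in 5 and exceeded them in 1, against 18.2% and 20.3% of all named genes. The median differences over the 11 were 0.49 and -0.17 in these comparisons, against 0.07 and 0.04 over all named genes. Adamts1, which cuts the proteoglycans versican and aggrecan, was 8.94, 8.50 and 9.0 in OC.2- cells. It was 6.12, 5.98 and 5.79 in OC.2+ cells and 5.85, 6.09 and 6.24 in adult hepatocytes. Those latter groups overlapped, far below the OC.2- arrays. Adamts1 was 6.74-fold (95% interval 5.45 to 8.33) higher in OC.2- cells than in adult hepatocytes (limma adjusted p = 5.04e-09) and 7.22-fold (95% interval 5.84 to 8.93) higher than in OC.2+ cells (limma adjusted p = 4.03e-09). The difference between OC.2+ cells and adult hepatocytes was -0.10 (95% interval -0.41 to 0.21, limma adjusted p = 0.565). Endothelial marker sums showed the same order, 3286 to 4416 on OC.2- arrays against 563 to 862 on the others, and stellate marker sums were also highest there. Their part in the Adamts1 difference was not tested.

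The promoters of Adamts1 and Timp1, the genes with the largest differences of their families, are printed with that of Mmp15, whose order of groups was different, with the same motifs in capitals.
Adamts1 (GRCr8 chr11:38427335-38427634, minus strand): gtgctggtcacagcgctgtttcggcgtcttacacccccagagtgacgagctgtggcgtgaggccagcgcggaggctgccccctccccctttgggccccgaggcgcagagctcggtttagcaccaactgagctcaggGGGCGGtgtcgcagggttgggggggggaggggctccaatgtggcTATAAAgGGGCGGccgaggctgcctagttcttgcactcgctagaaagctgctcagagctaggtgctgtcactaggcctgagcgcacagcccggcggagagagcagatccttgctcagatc
Timp1 (GRCr8 chrX:3771073-3771372, minus strand): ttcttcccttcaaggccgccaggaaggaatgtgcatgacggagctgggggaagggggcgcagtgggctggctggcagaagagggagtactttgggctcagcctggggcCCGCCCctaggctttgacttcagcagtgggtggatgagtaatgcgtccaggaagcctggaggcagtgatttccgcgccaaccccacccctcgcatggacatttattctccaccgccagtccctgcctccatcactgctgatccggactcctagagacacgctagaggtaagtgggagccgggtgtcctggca
Mmp15 (GRCr8 chr19:9690951-9691250, minus strand): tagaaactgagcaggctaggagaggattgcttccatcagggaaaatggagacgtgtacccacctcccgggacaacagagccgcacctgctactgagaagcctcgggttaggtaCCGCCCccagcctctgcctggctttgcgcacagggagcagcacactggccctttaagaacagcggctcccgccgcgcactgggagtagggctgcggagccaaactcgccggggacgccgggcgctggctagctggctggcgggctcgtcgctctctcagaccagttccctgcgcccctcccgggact
Adamts1 held 2 GC boxes and a TATAAA, and Timp1 and Mmp15 held 1 GC box each, reversed. GC content was 65.0% for Adamts1, 61.3% for Timp1 and 65.0% for Mmp15, compared with 49.7% for Mmp8, 38.3% for Mmp10 and 39.3% for Mmp27.

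Of the other proteoglycan-cutting ADAMTS genes, Adamts9 was 7.20 ± 0.12 (SD) in OC.2- cells, 6.47 ± 0.09 in OC.2+ cells and 6.30 ± 0.09 in adult hepatocytes (n = 3 in each). Adamts4 was 6.35, 5.94 and 6.55 on the OC.2- arrays, above all OC.2+ arrays (5.80 to 5.81) and all adult arrays (5.37 to 5.53). Adamts5 was called higher in OC.2- cells than in adult hepatocytes, by 0.49 ± 0.08 (SE), and the difference of -0.17 ± 0.08 between the fetal groups was not called. Adamts15 was called nowhere.

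The pair that cuts cartilage oligomeric matrix protein had different orders. Adamts12 was 7.94, 8.02 and 7.72 in OC.2- cells, 7.17, 7.17 and 7.25 in adult hepatocytes and 6.68, 6.72 and 6.81 in OC.2+ cells. It was 2.23-fold (95% interval 1.95 to 2.55) lower in OC.2+ cells than in the OC.2- group (limma adjusted p = 2.37e-07) and 1.38-fold (95% interval 1.20 to 1.57) lower than in adult hepatocytes (limma adjusted p = 0.000624). Groups did not overlap for this gene.

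Adamts7 was 7.75, 7.65 and 7.53 in adult hepatocytes, 6.76, 6.69 and 6.76 in OC.2- cells and 6.68, 6.5 and 6.57 in OC.2+ cells. All adult arrays were above all fetal arrays. It was 2.09-fold (95% interval 1.84 to 2.36) lower in OC.2+ cells than in adult hepatocytes (limma adjusted p = 1.26e-07) and 1.88-fold (95% interval 1.66 to 2.12) lower in OC.2- cells (limma adjusted p = 1.21e-06). The fetal groups differed by -0.15 (95% interval -0.33 to 0.03, limma adjusted p = 0.183). After cyclic loess it was -0.23 and called for Adamts7 (limma adjusted p = 0.0377).

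Among the enzymes that trim the amino end of procollagens, Adamts2 was highest in OC.2- cells and Adamts3, which also processes the lymphatic growth factor VEGF-C, in OC.2+ cells. Adamts3 was 6.64, 6.86 and 6.67 in OC.2+ cells, above 5.76, 5.98 and 6.01 in OC.2- cells and 5.53, 5.85 and 5.87 in adult hepatocytes. The difference from OC.2- cells was 0.81 ± 0.11 (SE) (limma adjusted p = 4.96e-05). A second, slightly dimmer row of Adamts3 gave 1.27 ± 0.10. Against adult hepatocytes that row gave 0.41 ± 0.10 for OC.2- and 1.68 ± 0.10 for OC.2+ cells. The row kept gave 0.17 ± 0.11 and 0.98 ± 0.11 (SE), so the size of these differences depended on the row. Adamts2 was 6.93, 6.90 and 7.17 in OC.2- cells, 6.62 on all 3 OC.2+ arrays, which held one identical value, and 6.24, 6.58 and 6.32 in adult hepatocytes. Adamts14 was called nowhere, and Adamts19, whose substrate is not established, was called only in OC.2- cells against adult hepatocytes (0.24, limma adjusted p = 0.0498).

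All 4 TIMPs were higher in OC.2- cells than in adult hepatocytes, under each of the scalings too, where 23.7% of all named genes were higher on the deposited values. Timp4 was dim, below the array median on all 9 arrays, and Timp2 lay below it on 6. Against the OC.2- group 3 of the 4 TIMPs were lower in OC.2+ cells, and 18.2% of all named genes were. Timp1, a secreted inhibitor of most MMPs, was 9.61, 9.49 and 9.61 in OC.2- cells. It was 7.25, 6.91 and 7.13 in OC.2+ cells and 5.92, 6.00 and 6.47 in adult hepatocytes. The groups did not overlap, and the OC.2+ arrays lay between the others. Timp1 was 10.9-fold (95% interval 8.87 to 13.3) higher in OC.2- cells than in adult hepatocytes (limma adjusted p = 3.71e-10) and 5.55-fold (95% interval 4.54 to 6.80) higher than in OC.2+ cells (limma adjusted p = 9.80e-09). OC.2+ cells were 1.96-fold (95% interval 1.60 to 2.39) above adult hepatocytes (limma adjusted p = 3.77e-05).

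Timp3, which stays bound to the matrix and also inhibits ADAM17 and ADAMTS enzymes, was 8.80, 8.24 and 8.32 in OC.2- cells. It was 7.58, 7.23 and 7.42 in OC.2+ cells and 6.59, 6.77 and 6.73 in adult hepatocytes. The order matched that of Timp1 with smaller gaps and no overlap. Timp3 was 3.38-fold (95% interval 2.75 to 4.16) higher in OC.2- cells than in adult hepatocytes (limma adjusted p = 3.01e-07) and 2.06-fold (95% interval 1.68 to 2.54) higher than in OC.2+ cells (limma adjusted p = 3.85e-05). Stellate marker sums were 3074 to 3590 on OC.2- arrays against 1525 to 1603 and 1291 to 1399, in the same order as these TIMPs. Macrophage and mast cell and basophil sums had that order too. All 10 stellate markers were lower in OC.2+ cells than in the OC.2- group. Against adult hepatocytes 9 were higher and 1 lower in OC.2- cells. For the 10 macrophage markers these counts were 0 higher and 3 lower between the fetal groups, and 7 higher and 1 lower against adult hepatocytes. Shares of all named genes were 20.3% higher and 18.2% lower in the first comparison, and 23.7% and 20.9% in the second. Of the 6 mast cell and basophil markers, however, 3 were higher and 2 lower in OC.2+ cells than in the OC.2- group. The part of each cell type was not tested.

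Timp2, which with Mmp14 takes part in activating Mmp2, was 6.58, 6.55 and 6.65 in OC.2- cells, 6.36, 6.15 and 6.20 in OC.2+ cells and 6.02, 5.91 and 5.97 in adult hepatocytes. The groups did not overlap, and the fold of OC.2- cells over adult hepatocytes was 1.54 (95% interval 1.37 to 1.74, limma adjusted p = 3.02e-05). Timp4 was 6.05, 6.07 and 6.14 in OC.2- cells, 5.96, 5.78 and 5.94 in OC.2+ cells and 5.53, 5.83 and 5.49 in adult hepatocytes. OC.2+ and adult arrays overlapped for this gene. It was 1.39-fold (95% interval 1.20 to 1.61) higher in OC.2- cells than in adult hepatocytes (limma adjusted p = 0.00160). Differences between OC.2+ cells and adult hepatocytes, 0.27 ± 0.08 (SE) for Timp2 and 0.28 ± 0.10 for Timp4, were called on the deposited values (limma adjusted p = 0.0119 and 0.0291) but under none of the other scalings (adjusted p up to 0.264 and 0.284). The Timp2 call also ended without OC.2+ replicate 1 (limma adjusted p = 0.0576). The Timp4 call also ended without adult replicate 1 (limma adjusted p = 0.102), adult replicate 3 (0.113), OC.2+ replicate 1 (0.0966) or OC.2+ replicate 3 (0.0875).

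Other genes of proteolysis around cells were read from lists of related genes. Of the 10 measured plasminogen system genes, OC.2+ cells exceeded OC.2- cells in 1 and fell short in 6 (median -0.51), against 20.3% and 18.2% of all named genes. In OC.2- cells 7 were higher and 2 lower than in adult hepatocytes (median 0.54), against 23.7% and 20.9%. In OC.2+ cells 5 were higher and 3 lower than in adult hepatocytes (median 0.21), against 32.0% and 23.4%. Plaur, the receptor that holds urokinase at the cell surface, was 9.58, 9.82 and 9.82 in OC.2+ cells, 8.19 on each OC.2- array and 7.47, 7.68 and 7.33 in adult hepatocytes. Its fold between the fetal groups was 2.92 (limma adjusted p = 4.61e-08). Plg, the plasminogen made by hepatocytes, was 9.82 ± 0.12 (SD) in OC.2+ cells against 12.33 ± 0.08 in OC.2- cells and 12.77 ± 0.06 in adult hepatocytes (n = 3 in each). Serpinf2, the plasmin inhibitor, was 8.0-fold lower in OC.2+ cells than in the OC.2- group (limma adjusted p = 1.34e-10). Anxa2 and S100a10, which together bind plasminogen, were 22.1-fold and 3.44-fold higher in OC.2- cells than in adult hepatocytes (limma adjusted p = 1.40e-11 and 1.55e-07), and Plau (urokinase) was 2.02-fold higher (limma adjusted p = 4.79e-06). OC.2+ cells were above adult hepatocytes too, 9.39-fold for Anxa2, 2.21-fold for S100a10 and 1.48-fold for Plau (limma adjusted p = 8.54e-11, 5.91e-06 and 0.000528). Anxa2 was 2.35-fold lower in OC.2+ cells than in the OC.2- group (limma adjusted p = 2.75e-06).

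Of the 13 measured regulators of MMPs and ADAMs, OC.2+ cells exceeded OC.2- cells in 5 and fell short in 4 (median 0.07), against 20.3% and 18.2% of all named genes. Furin, the convertase that removes the inhibitory propeptide of membrane-type MMPs and ADAMs, was 10.02 ± 0.03 (SD) in adult hepatocytes, 9.35 ± 0.13 in OC.2- cells and 7.45 ± 0.23 in OC.2+ cells (n = 3 in each). This was the order seen for Mmp15 and Mmp19. Bsg, known as an inducer of MMPs, was 2.53-fold lower in OC.2+ cells than in the OC.2- group (limma adjusted p = 1.40e-07). Tspan33 and Tspan5, tetraspanins that bind ADAM10, were 2.87-fold and 2.48-fold higher (limma adjusted p = 1.46e-08 and 1.89e-07). A2m, a plasma protein that traps proteases, was 12.85 ± 0.04 in OC.2- cells, 10.31 ± 0.08 in OC.2+ cells and 6.72 ± 0.18 in adult hepatocytes (SD, n = 3 in each), the same order as Timp1 and Timp3. Pcsk5 and Pcsk6, other convertases, were 2.08-fold and 2.11-fold lower in OC.2- cells than in adult hepatocytes (limma adjusted p = 1.25e-06 and 5.65e-07). In OC.2+ cells they were 2.02-fold and 1.24-fold lower than in adult hepatocytes (limma adjusted p = 9.40e-07 and 0.0114).

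Against adult hepatocytes the regulators gave 5 higher and 3 lower genes in OC.2- cells (median 0.13), against 23.7% and 20.9% of all named genes. In OC.2+ cells 6 were higher and 4 lower (median 0.11), against 32.0% and 23.4%. Of the 10 measured other metzincins and ADAMTS-like genes, OC.2+ cells exceeded OC.2- cells in 0 and fell short in 2, where 20.3% and 18.2% of all named genes were, and 0 were higher and 2 lower in OC.2- cells than in adult hepatocytes (23.7% and 20.9%). Bmp1, the procollagen C-proteinase, was 9.02 ± 0.08 in adult hepatocytes, 7.97 ± 0.15 in OC.2- cells and 6.56 ± 0.17 in OC.2+ cells (SD, n = 3 in each). Adamtsl4, an ADAMTS-like protein with no protease domain, was 2.13-fold lower in OC.2+ cells than in adult hepatocytes (limma adjusted p = 2.34e-07).

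Among 19 measured substrates of ADAM10 or ADAM17, OC.2+ cells exceeded OC.2- cells in 1 and fell short in 8 (median -0.20), against 20.3% and 18.2% of all named genes. The higher one was the hyaluronan receptor Cd44, at 2.37-fold (limma adjusted p = 1.49e-07). Cdh2 (N-cadherin) was 5.69-fold, Met (the hepatocyte growth factor receptor) 2.99-fold and Cdh1 (E-cadherin) 2.24-fold lower (limma adjusted p = 2.07e-10, 4.89e-07 and 9.83e-08). In OC.2- cells against adult hepatocytes 7 of the substrates were higher and 7 lower, against 23.7% and 20.9% of all named genes. Csf1r, the receptor of macrophage growth factor, was 2.30-fold, the receptor kinase Axl 2.18-fold and the cytokine Tnf 2.05-fold higher there (limma adjusted p = 1.67e-06, 9.67e-07 and 1.90e-05). The tumour necrosis factor receptor Tnfrsf1b was 2.55-fold and the growth factor Egf 2.04-fold lower (limma adjusted p = 4.29e-08 and 1.85e-06). In OC.2+ cells 6 of the substrates were higher and 10 lower than in adult hepatocytes, against 32.0% and 23.4%. Csf1r was 2.12-fold higher in that comparison (limma adjusted p = 2.33e-06). Tnfrsf1b was 2.71-fold, the interleukin 6 receptor Il6r 2.22-fold and the receptor Tnfrsf1a 2.16-fold lower (limma adjusted p = 8.92e-09, 6.77e-05 and 1.56e-07). Wider gaps in that comparison were those of Cdh2, Met, Cdh1 and Cd44. Cdh2, Met and Cdh1 averaged 9.61, 9.04 and 8.53 in adult hepatocytes and 6.49, 6.76 and 7.03 in OC.2+ cells. Cd44 averaged 5.31 in adult hepatocytes and 7.12 in OC.2+ cells. Of the 7 measured ADAMTS substrates, OC.2+ cells fell short of OC.2- cells in 3 and exceeded them in 0, and 4 were higher and 0 lower in OC.2- cells than in adult hepatocytes, with the same shares of all named genes as above for each comparison. Col1a1, the collagen whose propeptide Adamts2 removes, was 8.84 ± 0.12 in OC.2- cells, 8.0 ± 0.01 in OC.2+ cells and 7.53 ± 0.11 in adult hepatocytes (SD, n = 3 in each).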

How the data were processed

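RNA of 9 rat liver cell preparations was hybridised to Affymetrix Rat ST 1.0 arrays from 150 ng of total RNA, per the labels' protocols. Probe set intensities, on a linear scale, were deposited by the authors. Per the submitters' processing notes, Partek 6.6 and RMA were used, in roles that are not stated, and the genome build is not given. Of 28826 rows the probe annotation named 15209 with 1 symbol, 306 with several and 13311 with none, and only the first kind was named. Log2 was taken, and for the 494 genes with several rows the one with the highest mean was kept, which left 14497 genes. All 54 genes described were found in a current gene table (GRCr8).

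Group means were fitted over all 9 arrays by lmFit and eBayes of limma 3.58.1 (run in R 4.3.3), with 6 residual degrees of freedom, with no filter on dim genes. Tests were 2-sided, with Benjamini-Hochberg adjustment over all 14497 genes. Values by array are given for genes called with a difference of at least 2-fold and no overlap of arrays in any comparison, and for all Timp genes, Mmp2, Mmp9, Mmp14 and Adam17 whatever their values; Adam10 and Adamts13 were not analysed here. Array values of Adamts2, Adamts3 and Adamts4 fall outside this rule and were added after their values were seen. Related genes were named where called with at least a 2-fold difference. The labels do not tie replicate numbers across groups. Of the 9 same-number pairs across groups, 1 had deviations correlated above 0.1 (range -0.226 to 0.106), so the numbers were not used as pairs. The fit was tested on simulated data. The genes, lists and tests were chosen with earlier results of these data known.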

Additional observations from a re-analysis of the deposited data

How the results depend on the processing

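Every count was recomputed under other scalings, filters, variance models, thresholds and with single arrays left out; the counts by group of highest or lowest level were added after seeing the data. Keeping only the 7248 genes above the median gene by their mean over the 9 arrays left 16 of the 54 genes. This filter gave 2 higher and 9 lower in OC.2+ against OC.2- cells, and 7 higher in each fetal group against adult hepatocytes. It gave 5 highest in OC.2- and 2 highest in OC.2+ cells. Fewer genes were tested by construction. Removed from the genes highest in OC.2+ cells were Mmp8 and Adamts3, and from those highest in OC.2- cells Adamts2, Adamts4, Adamts9, Mmp16 and Timp2. A 2-fold requirement gave 2 higher and 7 lower between the fetal groups, against adult hepatocytes 4 higher and 0 lower for OC.2- and 2 higher for OC.2+ cells, and an adjusted p under 0.01 gave 9 higher in the last. Quantile normalization, median centring and cyclic loess gave 7, 6 and 6 higher in OC.2+ cells against adult hepatocytes. Median centring gave 7 lower in OC.2- cells against adult hepatocytes. Centring and cyclic loess gave 7 and 5 genes highest in adult hepatocytes. These scalings also moved the median of all genes, in OC.2+ cells against adult hepatocytes from 0.11 to 0.00, -0.03 and -0.03.

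With the replicate number as a block, the counts of genes higher and lower stayed within 1.5 times of those reported, and 10 genes were again highest in OC.2- cells. Leaving out 1 array gave 4 to 5 higher and 14 lower between the fetal groups, 15 to 19 higher and 3 to 5 lower in OC.2- cells and 11 to 18 higher and 6 lower in OC.2+ cells against adult hepatocytes. Among the genes described by array, the sign turned in OC.2- cells against adult hepatocytes for Mmp8, to -0.068 (quantile), -0.083 (centring) and -0.063 (loess), with -0.074 to 0.11 when 1 array was left out, and for Adam17, to -0.045 with median centring; neither was called there. The cause of the scaling effects was not tested. Arrays number 3 a group, which limits the precision, and dim genes have compressed folds.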
